A study of Homo sapiens with 18 samples.

Results

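MEIS1 and PBX3, DNA-binding partners of the HOXA proteins, were both highest in MOLM13, and PBX3 was higher with the BCAT1 hairpin than with the control hairpin in HL-60. The genes of interest were 9 by symbol, HOXA3, HOXA5, HOXA6, HOXA7, HOXA9, HOXA10, HOXA11, MEIS1 and PBX3, each to be read from its brightest probe. The platform annotation used here names 1 probe for MEIS1 and 1 probe for PBX3, so 2 of the 9 genes were analysed, out of 20046 genes with a named probe and 15288 tested. The other 7, all HOXA genes, were not analysed here, and nothing is said of their levels. Both analysed genes passed the filter on dim genes, which asked that the brightest of the 6 groups exceed the median of all probe values, 92.1.

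Gene expression was measured on 1-colour Illumina BeadChips in HL-60, SKM1 and MOLM13, 3 established cell lines from human acute myeloid leukaemia, the last of which is known to carry a fusion of KMT2A (MLL). Cells of each line were transduced with a hairpin against BCAT1 (shBCAT1, 1 construct) or with a non-targeting hairpin (shNT) and sorted 48 h later, giving 6 groups of 3 arrays. HL-60 was grown in 10% fetal calf serum and the other lines in 20%, so serum and line cannot be told apart where HL-60 is compared with them. The labels do not say whether replicates were separate cultures, so p-values measure only the spread between these samples, which may be technical.

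BCAT1, which starts the breakdown of branched-chain amino acids, lay between 1022 and 1476 with shNT and between 121 and 173 with shBCAT1, with log2 changes of -3.34 for HL-60, -3.27 for SKM1 and -2.77 for MOLM13. Array medians ran from 91.0 to 93.1, and replicate arrays correlated with r from 0.990 to 0.997. The 9 myeloid markers with a probe summed to 22222 to 23921 in HL-60, 27864 to 28928 in SKM1 and 29682 to 36455 in MOLM13 with shNT. PTPRC, the leukocyte antigen CD45, nevertheless read only 93.8 to 133 as group means, so a reading near the table median does not show that a gene is silent.

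HOX proteins bind DNA weakly alone and gain affinity and choice of site by joining TALE homeodomain proteins, above all those of the PBX and MEIS families. In normal blood formation HOXA genes and MEIS1 are active in stem and progenitor cells and are shut off as cells mature. KMT2A fusion proteins keep HOXA genes and MEIS1 active in leukaemia, and PBX3 and MEIS1 cooperate with HOXA9 in mouse models of the disease.

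The promoter windows of both genes are shown because both genes were highest in the same line. Each runs from 250 bases before to 50 after the gene's start in RefSeq (GRCh38.p14). Both strands were searched for TGACAG, the core bound by MEIS, TGATTNAT, bound by PBX with HOX, and CCAAT, bound by NF-Y, and matches are in capitals. MEIS1 lies at chr2:66434875-66435174 and PBX3 at chr9:125747933-125748232, both on the plus strand.
MEIS1: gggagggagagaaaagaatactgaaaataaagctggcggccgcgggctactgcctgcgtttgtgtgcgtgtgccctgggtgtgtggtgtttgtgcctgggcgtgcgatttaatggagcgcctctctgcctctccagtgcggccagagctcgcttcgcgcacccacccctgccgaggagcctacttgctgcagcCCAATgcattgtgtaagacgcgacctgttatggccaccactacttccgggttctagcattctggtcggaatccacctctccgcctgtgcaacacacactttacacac
PBX3: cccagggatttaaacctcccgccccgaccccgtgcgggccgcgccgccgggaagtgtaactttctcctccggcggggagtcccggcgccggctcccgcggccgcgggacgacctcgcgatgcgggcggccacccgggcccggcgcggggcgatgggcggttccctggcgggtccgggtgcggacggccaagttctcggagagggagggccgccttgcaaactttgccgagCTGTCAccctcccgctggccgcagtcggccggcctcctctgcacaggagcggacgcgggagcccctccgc
The MEIS1 window held 1 CCAAT and neither other motif. The PBX3 window held 1 TGACAG, on the minus strand (written CTGTCA), and neither other motif, so no matches overlapped. Of 35116 promoter windows of this length, 15.8% held TGACAG, 2.82% TGATTNAT and 34.6% CCAAT. MEIS1 has 18 CpG dinucleotides and 58.3% G and C, and PBX3 has 43 and 76.0%, against a median of 14 CpG over all windows. The arrays do not measure binding at these letters.

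MEIS1 was bright in MOLM13 only among the 3 lines. With shNT its intensity was 406, 492 and 506 in MOLM13, 86.7, 107 and 131 in HL-60, and 105, 109.9 and 112 in SKM1. Every MOLM13 array stood above every array of the other lines, as for 21.1% of tested genes against HL-60 and 25.8% against SKM1, and the HL-60 and SKM1 arrays overlapped. Means were 468 ± 54.2 (SD, n = 3) for MOLM13, 108 ± 22.2 for HL-60 and 109 ± 3.67 for SKM1. In limma's moderated test with Benjamini-Hochberg adjustment over all tested genes, MOLM13 exceeded HL-60 by 2.13 on the log2 scale (SE 0.11, 4.37-fold, adjusted p = 9.22e-14) and SKM1 by 2.10 (4.28-fold, adjusted p = 1.19e-13). SKM1 minus HL-60 was 0.03 (95% interval -0.20 to 0.27, adjusted p = 0.861). Only 1.47% of tested genes had a higher difference between MOLM13 and HL-60, and 0.975% between MOLM13 and SKM1. In bulk samples, fewer cells expressing a gene and less RNA per cell cannot be told apart.

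Because MEIS1 read near the table median in HL-60 and SKM1, the size of its fold depends on the background. MOLM13 minus HL-60 was 3.04 after a normexp correction and 4.12 after subtraction of the table median. Against SKM1 the values were 2.91 and 4.38. The subtraction set values under 16 to 16. This took in the HL-60 arrays at 86.7 and 107 and the SKM1 array at 105, so 4.12 and 4.38 depend on that floor. MOLM13 stayed above both lines under each correction.

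PBX3 formed a ladder over the lines. With shNT its intensity was 261, 272 and 293 in HL-60, 698, 730.3 and 739 in SKM1, and 1966, 1993 and 1996 in MOLM13, with no overlap between lines (SKM1 stood wholly above HL-60 for 27.5% of tested genes). Means were 276 ± 16.3, 723 ± 21.5 and 1985 ± 16.7 (SD, n = 3). MOLM13 exceeded HL-60 by 2.85 on the log2 scale (SE 0.08, 7.21-fold, limma adjusted p = 2.18e-19). MOLM13 exceeded SKM1 by 1.46 (2.75-fold, adjusted p = 1.04e-13), and SKM1 exceeded HL-60 by 1.39 (2.62-fold, adjusted p = 2.28e-13).

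**Figure D1:**
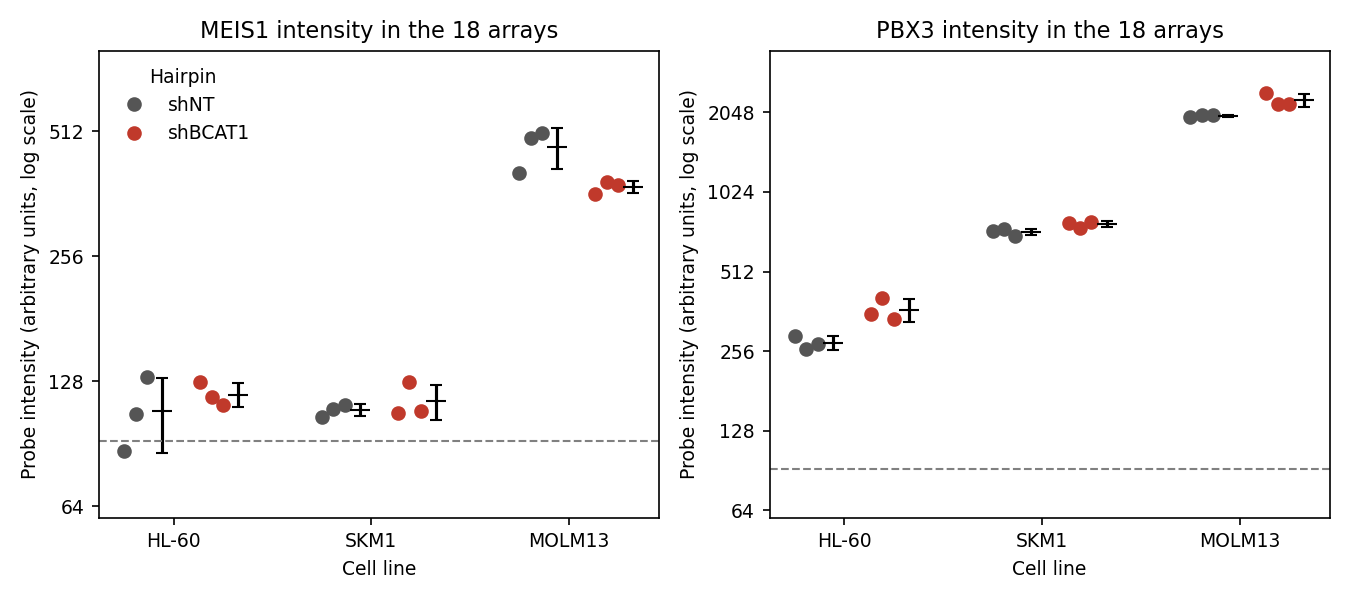
Intensity of MEIS1 and PBX3 in each of the 18 arrays by cell line and hairpin (log axis, arbitrary units), with points for arrays, bars for the mean ± SD of 3 arrays and a dashed line at the table median of 92.1. MEIS1 is at 362 to 506 in MOLM13 and at 131 or below in the other lines, while PBX3 steps up from HL-60 to SKM1 to MOLM13.

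With shNT, 2 of 2 analysed genes were called between MOLM13 and each other line, against 44.3% of all tested genes for HL-60 and 47.7% for SKM1. Between SKM1 and HL-60 it was 1 of 2, against 48.7%. Line differences are thus common here, and the count says little of these genes. A narrower pattern, above both other lines in MOLM13 with both hairpins, was met by both genes and by 8.35% of tested genes. The full ladder of PBX3 with both hairpins was met by 350 genes, 2.29%.

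The same order held with shBCAT1. MEIS1 in MOLM13 exceeded HL-60 by 1.67 (limma adjusted p = 7.74e-12) and SKM1 by 1.72 (adjusted p = 4.15e-12), in comparisons where 46.9% and 49% of tested genes were called. PBX3 differed by 2.64 between MOLM13 and HL-60, by 1.55 between MOLM13 and SKM1 and by 1.08 between SKM1 and HL-60, where 48% were called, all past the test. MEIS1 did not pass between SKM1 and HL-60 (-0.06, adjusted p = 0.734). Across the 18 arrays MEIS1 and PBX3 correlated with Pearson's r of 0.866, a description only, since the arrays come from 3 lines.

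With shBCAT1 in MOLM13, MEIS1 read lower and PBX3 higher, neither past the main test, which paired no arrays. MEIS1 was 406, 492 and 506 with shNT and 362, 381 and 387 with shBCAT1. The shBCAT1 arrays were all below the lowest shNT array, as for 15.5% of tested genes. The log2 change was -0.31 (SE 0.11, 95% interval -0.54 to -0.07, limma adjusted p = 0.0571). Same-numbered arrays of the hairpins deviated together in MOLM13. With the replicate number as a block, fitted in every line, the adjusted p of the MEIS1 change was 0.0495. Array weights (-0.35, adjusted p = 0.00688) and a stricter filter on dim genes (adjusted p = 0.0442) also brought it past the threshold. Over all alternatives the change ran from -0.41 to -0.25, with adjusted p from 0.00688 to 0.619. Single arrays decided the call: it passed without shNT replicate 1 of MOLM13 (-0.41, adjusted p = 0.0137), and without shNT replicate 1 or 3 of HL-60, which enter through the shared variance (adjusted p = 0.0229 and 0.0244).

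Where MEIS1 was dim its arrays overlapped between hairpins. In HL-60 the change was 0.15 (95% interval -0.08 to 0.39, limma adjusted p = 0.421), with shBCAT1 arrays at 112, 117 and 127. In SKM1 it was 0.07 (-0.17 to 0.30, adjusted p = 0.850), with shBCAT1 arrays at 107, 109 and 127. The F test of whether the 3 responses of MEIS1 differ gave an adjusted p of 0.0910, where 18% of tested genes passed. The response in MOLM13 minus that in HL-60 was -0.46 (adjusted p = 0.0574, and 0.0488 with the replicate block). The F test passed with array weights (adjusted p = 0.0156), without shNT replicate 3 of HL-60 (0.0127) and without shNT replicate 1 of MOLM13 (0.0259).

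PBX3 rose with shBCAT1 in HL-60. Its arrays went from 261, 272 and 293 with shNT to 338, 354 and 406 with shBCAT1, without overlap, as for 14.5% of tested genes. The change was 0.41 (SE 0.08, 95% interval 0.25 to 0.57, 1.33-fold, limma adjusted p = 0.000462). Under the alternatives run it stayed past the test, between 0.33 and 0.58, with adjusted p of at most 0.0134. In SKM1 the shBCAT1 arrays were 749.7, 781 and 789 against 698 to 739, a change of 0.10 (-0.06 to 0.26, adjusted p = 0.576). In MOLM13 they were 2195, 2207 and 2418 against 1966 to 1996, a change of 0.19 (0.03 to 0.36, adjusted p = 0.0863). Every shBCAT1 array thus lay above every shNT array of its line in all 3 lines, a pattern met by 418 tested genes, 2.73%. The responses were not shown to differ: the F test had an adjusted p of 0.122, and SKM1 minus HL-60 was -0.31 (adjusted p = 0.109). With the table median subtracted these became 0.0266 and 0.0273 (-0.46).

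Over both genes, 1 of 2 was called in HL-60 against 18.9% of tested genes, 0 of 2 in SKM1 against 11.2%, and 0 of 2 in MOLM13 against 21.1%. At an unadjusted p under 0.05 limma counted 0 of 2 in SKM1 and 2 of 2 in MOLM13. The share of all tested genes at that looser threshold was not counted. Unadjusted counts, here and for the lists below, are therefore not read as a result. Markers moved in the same comparisons. The 9 lymphoid markers with a probe summed to 1660.0 to 1733 with shNT and 2025 to 2385 with shBCAT1 in HL-60, 1224 to 1294 and 1278 to 1319 in SKM1, and 4185 to 4402 and 4595 to 5574 in MOLM13. Most of this was NKG7, a granule protein (956 in HL-60 and 3054 in MOLM13 with shNT), which rose in HL-60 by 0.57 and in MOLM13 by 0.31. The T and B cell markers CD3E and PAX5, which failed the filter on dim genes, had group means of 78.5 to 86.8. CD79A rose in HL-60 from 126 to 150 (0.25, limma adjusted p = 0.0358) and GNLY in MOLM13 from 130 to 158 (0.27, adjusted p = 0.0195). CD2 and MS4A1, with group means of up to 135 and 109, were not called between hairpins in any line. CD3D, another T cell gene, read 412 in MOLM13 with shNT against 83.2 in HL-60 and 77.9 in SKM1, and changed in MOLM13 by -0.80 with shBCAT1 (limma adjusted p = 6.23e-06), in the comparison where MEIS1 read lower. IL7R, a lymphoid cytokine receptor, changed there by 0.48 (adjusted p = 0.0108). In HL-60 the monocyte and granulocyte genes LYZ (1.54), SPI1 (0.61) and CSF3R (0.54) rose in the same comparison as PBX3. The myeloid sum with shBCAT1 was 24398 to 25485 in HL-60, 34939.8 to 38007 in MOLM13 and 14472 to 15570.3 in SKM1, where the granule genes MPO (-2.23) and AZU1 (-0.97) fell. Most of the lower SKM1 sum was MPO, whose mean was 11689 with shNT and 2498.5 with shBCAT1. Of the myeloid markers, CEBPE (1116 to 1274) and PTPRC (95.4 to 133) alone read higher in SKM1 with shBCAT1. MPO also fell in MOLM13 (-0.93). Of 7 tested erythroid and megakaryocytic markers, limma called EPOR in MOLM13 (-0.80, adjusted p = 7.30e-06) and PPBP in HL-60 (0.29, adjusted p = 0.0298). Of 6 tested epithelial and packaging cell markers it called EPCAM alone, in SKM1 (-0.29, adjusted p = 0.0317). EPCAM read 1473 there with shNT, against 89.3 in HL-60 and 91.4 in MOLM13. The part of these markers in the results was not tested.

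**Figure D2:**
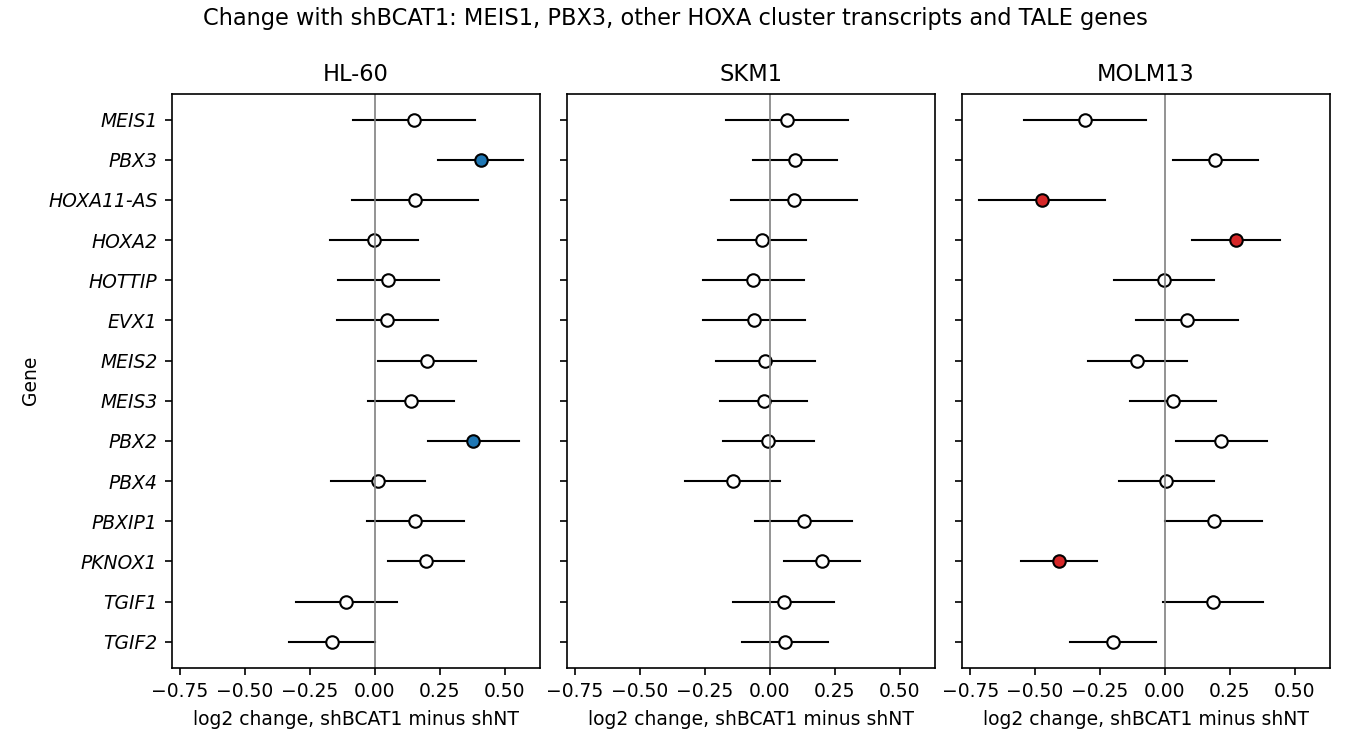
Log2 change with shBCAT1 (points) and its 95% interval (lines) by cell line for MEIS1, PBX3, the 4 other measured transcripts of the HOXA cluster and 8 TALE genes, with filled points past an adjusted p of 0.05. PBX3 and PBX2 are filled in HL-60, none in SKM1, and HOXA11-AS, HOXA2 and PKNOX1 in MOLM13.

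From the HOXA cluster itself, 4 of 11 further listed transcripts had a named probe. HOXA11-AS, a transcript antisense to HOXA11, was the bright one; whether its probe reads a single strand was not tested. With shNT it spanned 524 to 665 in MOLM13 (mean 605 ± 72.8, SD, n = 3), 110.0 to 155 in HL-60 and 76.8 to 84.7 in SKM1. MOLM13 exceeded HL-60 by 2.17 on the log2 scale (4.51-fold, limma adjusted p = 1.12e-13) and SKM1 by 2.89 (7.42-fold, adjusted p = 4.40e-16). With shBCAT1 it fell in MOLM13 to arrays at 405 to 474, a change of -0.47 (adjusted p = 0.00450). Its changes in HL-60 (0.15) and SKM1 (0.09) did not pass. The fall lost significance after normexp correction (-0.53, adjusted p = 0.0904) and after subtraction of the table median (-0.58, adjusted p = 0.370). The F test of the 3 responses had an adjusted p of 0.0134. It lost significance after normexp correction (0.114), after subtraction of the table median (0.384), and without shBCAT1 replicate 2 (0.0501) or shNT replicate 3 of MOLM13 (0.0519).

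HOTTIP, a noncoding transcript at one end of the cluster, and EVX1, a homeobox gene beside it, had group means of 106 to 126 and 83.6 to 96.1, with no call between hairpins. HOXA2 rose by 0.27 in MOLM13 (limma adjusted p = 0.0171), from 96.1 to 117, close to the table median. Its other probe changed by 0.02 there. The call was lost without shBCAT1 replicate 1 (0.21, adjusted p = 0.108) and without shNT replicate 3 of MOLM13 (0.25, adjusted p = 0.0683), in the arrays of MOLM13 alone and with the mean over probes. In HL-60 and SKM1 limma called 0 of 4, against 18.9% and 11.2% of tested genes, with 0 and 0 at an unadjusted p under 0.05.

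Of the other HOX clusters, HOXC4 and HOXD13 stood out in HL-60. All 28 listed HOXB, HOXC and HOXD genes had a probe and 17 were tested. With shNT HOXC4 was 267 ± 16.4 (SD, n = 3) in HL-60 against 81.6 in SKM1 and 82.2 in MOLM13, and HOXD13, a gene of limb patterning, was 289 ± 13.3 against 82.4 and 80.9. Of the 17, 6 were lower and 0 higher in MOLM13 than in HL-60, against 24.8% and 19.5% of all tested genes. Between MOLM13 and SKM1 limma called 0, against 47.7% of tested genes, with 0 at an unadjusted p under 0.05. Any gene that passed the filter only through HL-60 would lie at or below the table median in both other lines. HOXC4 and HOXD13 read below that median there with shNT. Such genes would read lower in MOLM13 than in HL-60, and dim in both MOLM13 and SKM1. Neither of these line counts is therefore read as a result. With shBCAT1 in HL-60, 3 fell and 0 rose, against 8.87% and 10% of tested genes. Any gene that passed the filter only through shNT in HL-60 would read lower with shBCAT1, so this count is not read as a result either. HOXC4 fell from arrays at 253 to 285 with shNT to arrays at 157 to 189.8 with shBCAT1 (-0.60, adjusted p = 1.58e-05), and its responses differed between lines (F test adjusted p = 0.000496). A dimmer probe of HOXC4, with a mean of 85.0, changed by 0.02 in HL-60. Its difference between MOLM13 and HL-60 with shNT was 0.03, against -1.70 for the brightest probe. HOXD13 changed by -0.32 (adjusted p = 0.00658, and 0.148 after normexp correction), and HOXC8 by -0.25 (adjusted p = 0.0393), a call lost under 9 alternatives. In SKM1 and MOLM13 limma called 0 of 17, against 11.2% and 21.1% of tested genes, with 0 and 3 at an unadjusted p under 0.05.

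Of the other TALE genes and PBX partners, 9 of 10 had a probe and 8 were tested. MEIS2, a close relative of MEIS1, had another order of lines, with means of 499 ± 18.2 in SKM1, 222 ± 17.4 in HL-60 and 120.2 ± 6.50 in MOLM13 (SD, n = 3). MOLM13 minus SKM1 was -2.06 (limma adjusted p = 2.75e-15). Dimmer probes of MEIS2, with means of 80.6 to 88.1, gave -0.10, -0.13 and 0.10 there. PBX2 read 344 for MOLM13, 430.1 for HL-60 and 592 for SKM1. The TALE repressors TGIF1 and TGIF2 read 992 and 622 in HL-60, 399.6 and 366 in SKM1, and 627 and 455 in MOLM13. Of the 8, 0 were higher in MOLM13 than in HL-60 and 4 were lower, against 19.5% and 24.8% of all tested genes.

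With shBCAT1, PBX2 rose in HL-60 from arrays at 417 to 443 with shNT to arrays at 519 to 616 with shBCAT1 (0.38, limma adjusted p = 0.00207). Its change was -0.01 in SKM1 and 0.22 in MOLM13 (adjusted p = 0.0763). PKNOX1, a relative of MEIS that binds PBX, fell in MOLM13 from arrays at 221 to 227 with shNT to arrays at 166 to 174 with shBCAT1 (-0.41, adjusted p = 0.000141). Its changes were 0.20 in HL-60 and 0.20 in SKM1, and the responses differed (F test adjusted p = 8.39e-05). A dimmer probe of PKNOX1 changed by 0.11 in MOLM13, and with the mean over probes the change was -0.15 (adjusted p = 0.115). In SKM1 limma called 0 of 8, against 11.2% of tested genes, with 1 at an unadjusted p under 0.05.

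**Figure D3:**
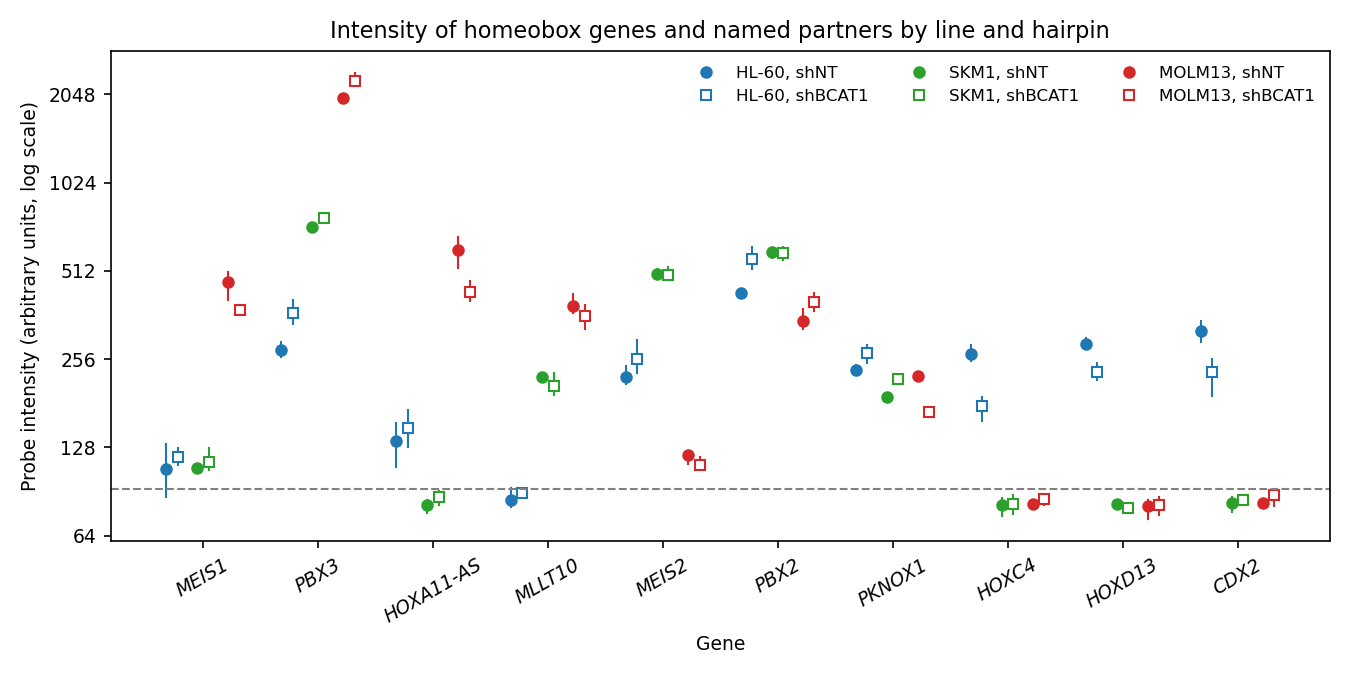
Mean intensity (log axis, arbitrary units) of MEIS1, PBX3 and 8 related genes by line and hairpin, with lines from the lowest to the highest of 3 arrays and a dashed line at the table median. MEIS1, PBX3, HOXA11-AS and MLLT10 are highest in MOLM13, MEIS2 and PBX2 in SKM1, and HOXC4, HOXD13 and CDX2 in HL-60. Levels are compared within a gene only, since probes differ in brightness.

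Of 25 listed KMT2A complex members and fusion partners, 24 had a probe and 23 were tested. KMT2A, the methyltransferase, read 111 in MOLM13 and 182 in HL-60 (-0.70, limma adjusted p = 2.21e-06); where its probe lies relative to the fusion break was not tested. MLLT10 (AF10), a partner of the methyltransferase DOT1L, had the same order of lines as PBX3, with arrays at 80.3 to 92.9 in HL-60, 220.1 to 223 in SKM1 and 367 to 427 in MOLM13. So did ASH2L, a core subunit of the complex, with 679.6, 1206 and 2179. WDR5, another core subunit, read 1040.2 for HL-60, 429 for SKM1 and 509 for MOLM13. Of the 23, 6 were higher and 7 lower in MOLM13 than in HL-60, against 19.5% and 24.8% of all tested genes.

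With shBCAT1, 2 of the 23 rose and 2 fell in HL-60, 2 and 2 in SKM1, and 2 and 4 in MOLM13. Over all tested genes 18.9%, 11.2% and 21.1% were called in these lines, so the counts say little of this list. AFF1 (AF4), a scaffold of the super elongation complex, fell in SKM1 (-0.97, limma adjusted p = 2.27e-08). Its arrays there were at 288 to 328 with shNT and at 145 to 167 with shBCAT1. The myeloid marker sum of that line was also lower with shBCAT1, mostly through MPO. AFF1 changed by -0.27 in HL-60, a call lost under 8 alternatives, and by -0.21 in MOLM13, and the responses differed (F test adjusted p = 0.000114). A dimmer probe of AFF1, with a mean of 94.3, changed by -0.05 in SKM1. AFF4, a relative of AFF1, rose in SKM1 (0.45, adjusted p = 0.000657) and MOLM13 (0.39, adjusted p = 0.00155). CDK9, the kinase of the elongation complex, rose in HL-60 (0.41, adjusted p = 0.00182), where its cyclin CCNT1 fell (-0.49, adjusted p = 0.000199, and 0.0519 with the mean over probes). In MOLM13 MLLT6 (-0.49), the transcription regulator HCFC1 (-0.42), WDR5 (-0.37) and the elongation factor subunit LEO1 (-0.36) fell. With the mean over probes WDR5 and LEO1 had adjusted p of 0.101 and 0.0536. RBBP5, a core subunit, changed by 0.30 there (adjusted p = 0.0414), a call lost under 13 alternatives.

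Of 14 upstream regulators of HOXA transcription, 11 were tested. CDX2, a homeobox activator of HOX genes, read 318 ± 26.6 (SD, n = 3) in HL-60 against 82.9 in SKM1 and 82.7 in MOLM13, and fell in HL-60 with shBCAT1 to 231 ± 34.8 (-0.47, limma adjusted p = 0.000747). In all, 0 of 11 rose and 2 fell in HL-60, and 0 rose and 1 fell in MOLM13. Over all tested genes 18.9% and 21.1% were called in these lines, so the counts say little of this list. The calls of SET in HL-60 (-0.25, adjusted p = 0.0262) and XPO1, a nuclear exporter, in MOLM13 (-0.34, adjusted p = 0.0399) were lost under 6 and 8 alternatives. XPO1 was lost without shBCAT1 replicate 1 (-0.28, adjusted p = 0.161) or 2 (-0.26, adjusted p = 0.184), or shNT replicate 2 (-0.36, adjusted p = 0.0746) or 3 (-0.23, adjusted p = 0.234). SET was lost without shBCAT1 replicate 1 (-0.26, adjusted p = 0.0528) or 3 (-0.21, adjusted p = 0.108), or shNT replicate 1 of HL-60 (-0.20, adjusted p = 0.126). Over the alternatives the number called was 1 to 3 in HL-60 and 0 to 1 in MOLM13. In SKM1 limma called 0 of 11, against 11.2% of tested genes, with 1 at an unadjusted p under 0.05. NPM1, whose mutant form accompanies high HOXA expression, had group means of 82.1 to 91.5 and was not tested.

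Of 18 genes reported elsewhere as targets of HOXA9 and MEIS1, 17 were tested. With shNT, 9 were higher and 3 lower in MOLM13 than in HL-60, and likewise 9 and 3 against SKM1. Of all tested genes 19.5% were higher and 24.8% lower against HL-60, and 21.9% and 25.8% against SKM1. The median log2 difference of the 17 was 0.65 and 0.36, against -0.04 and 0.00 over all tested genes. FLT3, a receptor tyrosine kinase of progenitor cells, was 1551 ± 114 in MOLM13, 183 ± 2.76 in SKM1 and 87.8 ± 5.91 in HL-60 (SD, n = 3). Its difference between MOLM13 and HL-60 was 4.14 (limma adjusted p = 1.74e-22). PIM1, a kinase induced by cytokines, read 2535 in MOLM13, 242 in SKM1 and 168 in HL-60. TRIB2, a pseudokinase, read 82.1, 259 and 167 in that order of lines.

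With shBCAT1, 5 of the 17 rose and 6 fell in HL-60, 3 and 6 in SKM1, and 0 and 4 in MOLM13. Over all tested genes 18.9%, 11.2% and 21.1% were called in these lines. Median changes of the 17 were -0.13, -0.07 and -0.16, against 0.00 over all tested genes in each line. CDK6, a kinase of G1 phase, fell from arrays at 789 to 970.4 with shNT to arrays at 209 to 328 with shBCAT1 in HL-60 (-1.70, limma adjusted p = 9.68e-10), by 1.55 on the log2 scale in SKM1 and by 0.83 in MOLM13. BCL2, an inhibitor of apoptosis, changed by -1.34 in SKM1 (adjusted p = 3.63e-08) and -0.62 in MOLM13 (adjusted p = 0.000624). In HL-60 it changed by -0.44 (adjusted p = 0.0129), a call lost with the table median subtracted (adjusted p = 0.0582), with array weights (0.0543), in the HL-60 arrays alone (0.0570), and without shBCAT1 replicate 2 (-0.28, adjusted p = 0.121) or shNT replicate 1 of HL-60 (-0.32, adjusted p = 0.0945). FLT3 changed by -0.39 in SKM1 and -0.34 in MOLM13 (adjusted p = 0.00264, and 0.0685 after normexp correction). RUNX2, a transcription factor, changed by -0.38 in MOLM13 (adjusted p = 0.000351). The SKM1 changes of CDK6, BCL2 and MYB stood beside the lower myeloid marker sum of that line with shBCAT1, which was mostly a fall of MPO. The part of that sum in these changes was not tested. In HL-60 MYC changed by -1.11 and CCND3, cyclin D3, by 1.24. MYB, a progenitor transcription factor, changed by -0.98 in SKM1 and -0.28 in MOLM13 (adjusted p = 0.106, and 0.0431 with the replicate block).

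**Figure D4:**
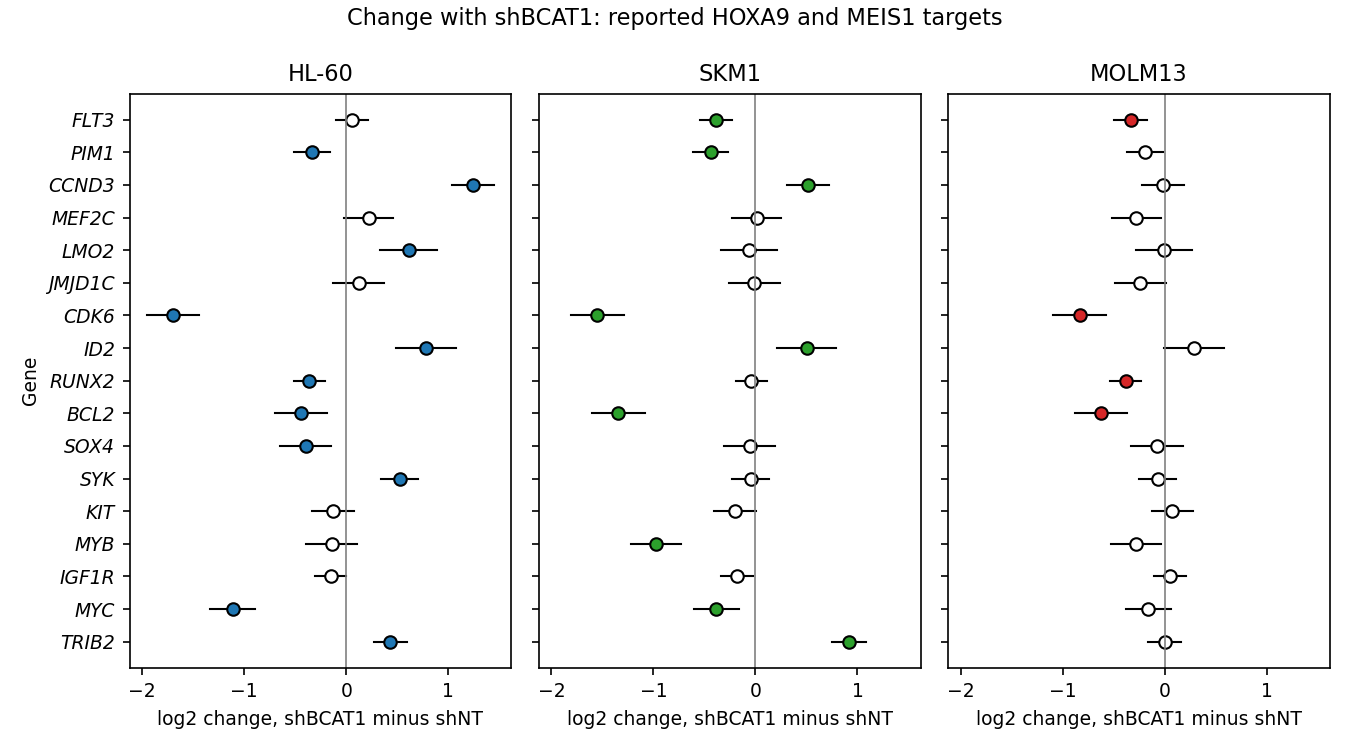
Log2 change with shBCAT1 (points) and its 95% interval (lines) by line for 17 reported targets of HOXA9 and MEIS1, with filled points past an adjusted p of 0.05. CDK6 and BCL2 lie below 0 and are filled in each line, and in MOLM13 no filled point lies above 0.

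Among 4205 genes whose group means spanned at least 1 on the log2 scale, those with the pattern most like MEIS1 over the 18 arrays were ITGB5, an integrin subunit (r = 0.990), SKIDA1 (r = 0.990) and SOCS1, an inhibitor of cytokine signalling (r = 0.989). In all, 115 genes had r above 0.95 with MEIS1. The 18 arrays include both hairpins, so changes in step with MEIS1 are partly built into this choice. ITGB5, SKIDA1 and SOCS1 read 812, 646 and 660.0 in MOLM13 with shNT. With shBCAT1 there, SKIDA1 changed by -0.61 (limma adjusted p = 4.83e-06) and ITGB5 by -0.38 (adjusted p = 0.00377, and 0.0832 after normexp correction). SOCS1 changed by -0.30 (adjusted p = 0.0301), a call lost after normexp correction (0.186), in the MOLM13 arrays alone (0.111), and without shBCAT1 replicate 1 (-0.21, adjusted p = 0.196), shNT replicate 2 (-0.25, adjusted p = 0.142) or shNT replicate 3 of MOLM13 (-0.24, adjusted p = 0.147).

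Most like PBX3 were CDKN1A, the p21 inhibitor of cyclin-dependent kinases (r = 0.993), COMMD3 (r = 0.992) and PECAM1, an adhesion molecule (r = 0.991), and 137 genes had r above 0.95. CDKN1A rose with shBCAT1 in HL-60 (0.99, limma adjusted p = 1.56e-06) and MOLM13 (0.72, adjusted p = 9.31e-05, and 0.0588 with the table median subtracted). In SKM1 CDKN1A changed by 0.39 (adjusted p = 0.0357), a call lost under 8 alternatives. PECAM1 rose in MOLM13 (0.54, adjusted p = 0.000181), and its change of 0.32 in SKM1 was lost under 6. COMMD3 was called in no line (0.20, -0.01 and -0.07 in HL-60, SKM1 and MOLM13). On chromosome 10, SKIDA1 and MLLT10 have 0 protein-coding genes between them, and MLLT10 and COMMD3 have 2. The likeness rests on 3 lines. It was computed on the arrays of both hairpins, so changes in step with PBX3 are partly built into the choice of genes.

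**Figure D5:**
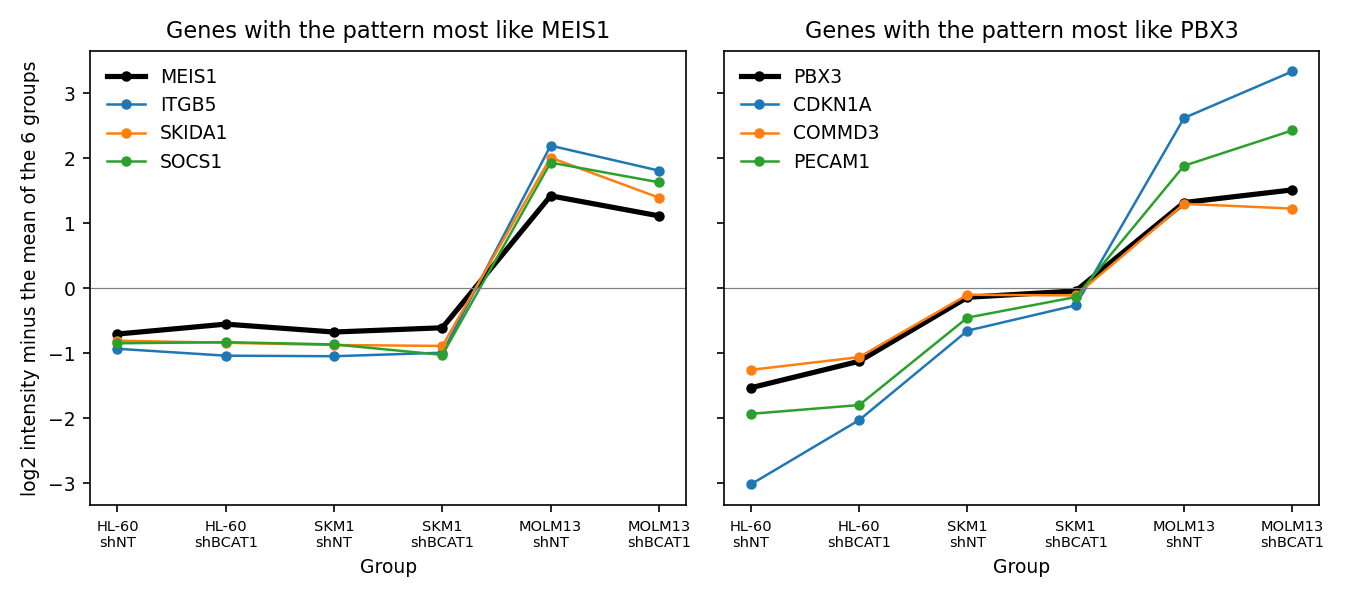
Log2 intensity of MEIS1 and PBX3 (black) and of the 3 genes most like each, as the difference from the mean of the 6 group means. The genes like MEIS1 are flat over HL-60 and SKM1 and high in MOLM13, and those like PBX3 step up from HL-60 to SKM1 to MOLM13.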

How the data were processed

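Total RNA (200 ng per array) was amplified, labelled and hybridised to 1-colour Illumina arrays, per the labels' protocols. The deposited values are probe intensities on a linear scale from 60.4 to 22917.5; how the authors normalized them and treated background is not given in the sources used here. Array medians differed by 0.0337 on the log2 scale, so no further normalization was applied. Of 48107 probes, 30113 had 1 gene symbol, 8 several and 17986 none in the platform annotation used, and each gene was read from its brightest probe. The 15288 genes without missing values whose brightest group exceeded the table median were tested on log2 intensity with limma 3.58.1 (R 4.3.3), with 1 mean per group over all 18 arrays, 12 residual degrees of freedom and Benjamini-Hochberg adjustment at 0.05. An F test compared the 3 responses to the hairpin.

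The genes, lists and markers were chosen with earlier results of these data known. Named were all members, BCAT1, the 3 genes most like each member, and up to 4 genes of each list and contrast with the smallest p. PTPRC, NKG7, CD3D, CD3E, PAX5, IL7R, CD79A, GNLY, CD2, MS4A1, EPOR, PPBP, EPCAM, LYZ, SPI1, CSF3R, CEBPE, MPO, AZU1 and NPM1 were named after their values were seen, as were genes given as relatives. Alternatives were other normalization, background, filter, probe and variance settings, each array left out, each line alone and the replicate number as a block. Deviations of same-numbered arrays of the 2 hairpins correlated with r from 0.131 to 0.382 in MOLM13, 0.0130 to 0.163 in HL-60 and -0.141 to 0.0407 in SKM1. For differently numbered arrays r was -0.304 to -0.0369, -0.202 to 0.128 and -0.0420 to 0.142 in that order. Same-numbered arrays thus stood apart in MOLM13 only. The main fit paired no arrays, and the block, where used, was fitted in every line. On simulated data in which 200 of these 15288 genes changed, changes of 0.3 on the log2 scale were recovered in 19.4% of cases for HL-60, 16.4% for SKM1 and 28.4% for MOLM13. Changes of 0.5 were recovered in 91.0% in each line. In the data 2887, 1707 and 3219 genes were called in these lines. The adjustment depends on how many genes change, so the simulated rates do not carry over to the data. The number of arrays limits the precision. Figures were drawn with matplotlib 3.10.9.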

Additional observations from a re-analysis of the deposited data

Results flagged for a closer look

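Cell type markers aside, the response to shBCAT1 differed between the 3 lines for 20 genes named in the text. This was limma's F test, which 18% of all tested genes passed. Adjusted p-values of the 20 genes follow. In the HOX and TALE lists these were HOXA11-AS (0.0134), HOXC4 (0.000496) and PKNOX1 (8.39e-05). Among the KMT2A cofactors and upstream regulators they were AFF1 (0.000114), CDK9 (0.0154), LEO1 (0.0218), HCFC1 (0.0443) and CDX2 (0.00660). Among reported targets they were FLT3 (0.00895), MYB (0.00176), CDK6 (0.00187), BCL2 (0.00137), MYC (0.000141), TRIB2 (1.15e-05), CCND3 (4.08e-06), SYK (0.00138) and RUNX2 (0.0298). BCAT1 itself (0.00221), SKIDA1 (0.000548) and CDKN1A (0.0416) complete the 20. Named markers that also passed were MPO (4.76e-10), LYZ (4.98e-06), AZU1 (1.44e-05), CD3D (0.000103), SPI1 (0.00130), EPOR (0.00245), CSF3R (0.00670) and PTPRC (0.0416). The marker tests were not repeated under the alternatives.

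The direction of these differences varied by gene. TRIB2 rose in HL-60 (0.43) and SKM1 (0.92) and changed by 0.00 in MOLM13, where it read below the table median. SYK, a kinase, rose in HL-60 (0.52) and changed by -0.05 in SKM1 and -0.07 in MOLM13. CCND3 changed by -0.02 in MOLM13. Of 560 alternatives of these 20 tests, 508 kept the call, with losses for 8 genes. Of 28 alternatives each, HCFC1 kept it in 11, CDKN1A in 16, RUNX2 in 19, LEO1 in 22, HOXA11-AS in 24, CDK9 in 26, and PKNOX1 and SKIDA1 in 27. The RUNX2 call was lost after normexp correction (0.177), with the mean over probes (0.258), with trend and robust eBayes (0.0655), with the replicate block (0.0520) and with each of 5 arrays left out.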

How the results depend on the processing

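Of 734 alternatives of results on MEIS1 and PBX3, 717 kept their side of the threshold, 17 passed only under the alternative, and none lost a call or changed the sign of a called value. Among values not called, 3 of MEIS1 changed sign under some alternative: SKM1 minus HL-60 with shNT (-0.27 to 0.18), the change with shBCAT1 in SKM1 (-0.01 to 0.24) and the response in SKM1 minus that in HL-60 (-0.23 to 0.06). The number of these genes called with shBCAT1 in MOLM13 went from 0 to 1 (MEIS1) with the stricter filter, array weights and the replicate block, and ranged from 0 to 1 with each array left out. The number called in the F test went from 0 to 1 with the table median subtracted (PBX3) and with array weights (MEIS1), and ranged from 0 to 1 with each array left out. The cause was not tested. The replicate block brought MEIS1 and MYB in MOLM13 past the threshold, as given above. The block ended the calls of HOXC8 in HL-60 (adjusted p = 0.0509) and of the RUNX2 F test (0.0520). It also brought past the threshold the F tests of ITGB5 (0.0314), PECAM1 (0.0271) and XPO1 (0.0165), and with shNT BCL2 between MOLM13 and SKM1 (0.0163) and LEO1 between SKM1 and HL-60 (0.0398). Among the other named genes, markers aside, 117 of 157 calls held under every alternative run. Over all genes, calls with shBCAT1 in SKM1 numbered 1707, 3099 with array weights and 3005 with that line alone. The response counts were 1547 for MOLM13 minus SKM1, against 2823 with array weights and 930 with normexp, and 979 for SKM1 minus HL-60, against 531 with normexp. For genes near the table median, signal over background limits the fold.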
